A study of Mus musculus with 62 samples.

Results

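Potassium channel genes are described here across the nucleus accumbens (NAc), the prefrontal cortex (PFC) and the suprachiasmatic nucleus (SCN) of mice. The genes are the rows of the deposited count tables whose Ensembl identifier maps to a protein-coding gene with a symbol that starts with Kcn. There were 62 such genes among 12483 rows of either table, of 94 protein-coding Kcn genes in the annotation. The other 32 are not analysed here. The table of the NAc and PFC held 58 of the 62, the table of the SCN held 54, and 50 were in both. They comprised 28 voltage-gated subunits, 3 Kcnq genes, 10 inward rectifiers, 6 two-pore channels, 3 small-conductance calcium-activated channels, 3 large-conductance or sodium-activated channels and 9 auxiliary subunits.

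Potassium channels let potassium leave the cell and set the resting potential, the shape of the action potential and the rate at which a neuron fires. Voltage-gated channels open on depolarization, inward rectifiers pass current near rest, two-pore channels carry leak currents, and calcium- or sodium-activated channels open after ions enter during activity. Striatal projection neurons are known for a hyperpolarized resting potential held by inward rectifiers and for A-type currents that delay the first spike. SCN neurons pace themselves, and several potassium currents take part in their daily rhythm of firing.

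RNA came from frozen tissue punches of C57BL/6J mice of both sexes, killed at ZT6 (hours after lights on) about 4 weeks after a circadian rhythm disruption (CRD) or a control schedule. The study's methods for this tissue name CRD in adolescence alone, while the protocol text given for all samples also names CRD in adulthood. The 62 libraries were 26 of the NAc, 17 of the PFC and 19 of the SCN, from 26 mice. The labels name a region and a mouse number only, so CRD, the age at CRD and sex were not tested, and the libraries of a region mix CRD and control mice of both sexes. The mice are numbered in 2 ranges, 12 of them up to J1021 and 14 from J1140, for which the labels give no reason, and the region comparisons were repeated within the lower and the upper range. A library is 1 punch of mixed cells, in which fewer cells of a type and less RNA per cell cannot be told apart.

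Total counts per library ranged from 28879724 to 60009482 in the NAc, from 31216225 to 50333579 in the PFC and from 16496666 to 35389742 in the SCN. Those in nuclear protein-coding genes were 8965718 to 27046661 (NAc), 11583220 to 20427534 (PFC) and 5868489 to 23495106 (SCN). The summed level of 8 striatal projection neuron markers was 1589 to 3804 CPM (read counts scaled to library size) in the NAc and 69.9 to 155 CPM in the PFC. The summed level of 7 cortical glutamatergic markers was 833 to 985 CPM in the PFC and 12.1 to 471 CPM in the NAc, and its main gene, Slc17a7, ranged from 4.77 to 359 CPM among the NAc libraries. In the SCN, 9 markers of SCN neurons summed to 78.5 to 414 CPM, and 6 striatal markers with a row summed to 95.5 to 733 CPM. The SCN library of mouse J1199 was the lowest of the first sum and the highest of the second. Counts of genes called between regions are given below with and without libraries at these extremes, as are slopes among the SCN libraries. Ranges, spreads and summed levels include all libraries.

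Between the NAc and PFC, most potassium channel genes differed in level, in both directions. Of 58 genes tested, 19 were higher in the NAc and 30 were lower, and 9 were not called. Calls came from edgeR's quasi-likelihood test over all 11569 rows and needed an adjusted p under 0.05 with a change of 1.2-fold or more. Of all rows, 45.4% were called, 23.7% as higher and 21.7% as lower in the NAc, against 84.5% of the potassium channel genes. The median size of the log2 fold change was 0.64 over the 58 genes and 0.24 for all rows. The libraries of the regions did not overlap for 22 of the 58 genes, against 9.48% of all rows. The genes highest in the NAc relative to the PFC were Kcna5, Kcnk2, Kcna4, Kcnk13, Kcnip2, Kcnab1, Kcnj2, Kcnn3, Kcna1 and Kcnd2. Those lowest were Kcnc4, Kcnh7, Kcnj6, Kcnj9, Kcnj3, Kcnc2, Kcnt2, Kcnmb4, Kcnb2 and Kcns3. The number called was 44 to 49 under every alternative run. With the 5 NAc libraries highest in Slc17a7 left out, it was 49, with 17 higher and 32 lower.

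**Figure D1:**
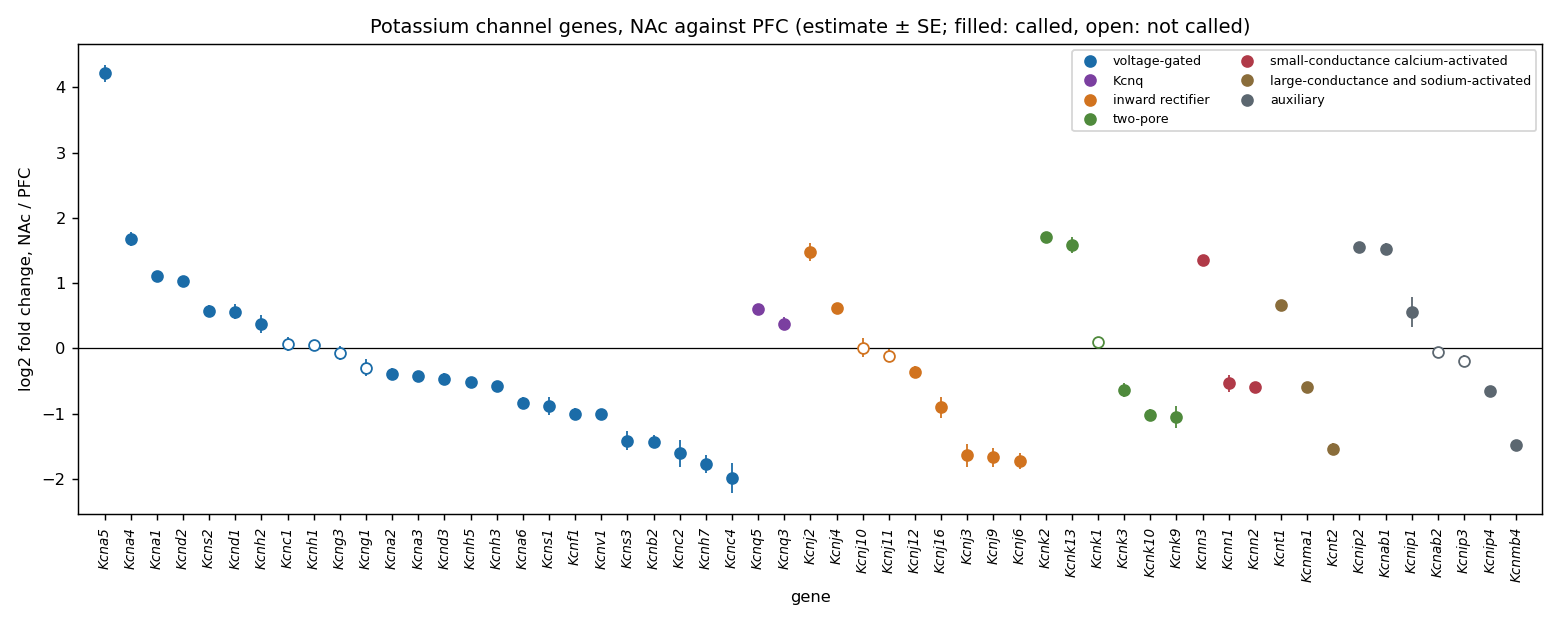
Estimated log2 fold change (NAc over PFC, ± SE) of 55 of the 58 potassium channel genes tested, ordered within each family and coloured by family; filled points were called and open points were not. The estimates run from -1.98 for Kcnc4 to 4.21 for Kcna5, and each family but Kcnq holds called genes on both sides of 0.

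Kcna5 differed most. It encodes a delayed rectifier of the Shaker-type Kcna family and lies at chr6:126532551-126535412 of GRCm38, on the minus strand. Kcna5 ranged over 11.6 to 24.8 CPM (median 17.7) across NAc libraries and over 0.412 to 1.60 CPM (median 0.959) across PFC libraries. Every NAc library was above every PFC library, and in the 17 mice with both regions the NAc was higher in each. The level was 18.6-fold higher in the NAc (log2 fold change 4.21 ± 0.12, adjusted p = 3.8e-31). Its SCN median lay between those, at 1.94 to 11.7 CPM (median 4.08). Kcnc4 was the gene with the largest difference in the other direction. It encodes a fast-activating subunit of the Kcnc family, whose channels repolarize narrow spikes, and lies at chr3:107438303-107459552. Kcnc4 ranged over 1.18 to 13.01 CPM (median 5.75) across NAc libraries, over 17.6 to 26.9 CPM (median 23.9) across PFC libraries and over 11.4 to 37.2 CPM (median 17.5) across SCN libraries. The NAc and PFC did not overlap (log2 fold change -1.98 ± 0.23, adjusted p = 3.5e-10). The 250 bases before the RefSeq start of both genes (build GRCm38.p6) are shown because they differ in CG dinucleotides, which are in capitals and mark CpG islands where they are dense.
Kcna5, chr6:126535556-126535805, minus strand: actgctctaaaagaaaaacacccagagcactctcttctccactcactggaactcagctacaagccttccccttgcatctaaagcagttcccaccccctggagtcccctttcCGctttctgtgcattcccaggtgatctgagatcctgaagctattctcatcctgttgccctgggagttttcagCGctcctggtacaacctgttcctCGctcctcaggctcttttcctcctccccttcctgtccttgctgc
Kcnc4, chr3:107458899-107459148, minus strand: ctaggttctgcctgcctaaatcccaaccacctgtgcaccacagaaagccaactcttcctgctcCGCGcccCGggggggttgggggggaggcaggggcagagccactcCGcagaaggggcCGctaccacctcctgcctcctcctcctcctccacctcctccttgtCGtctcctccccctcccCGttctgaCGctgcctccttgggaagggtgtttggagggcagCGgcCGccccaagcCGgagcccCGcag
The Kcna5 stretch held 3 CG dinucleotides at 53.2% GC, and the Kcnc4 stretch held 12 at 68.0% GC. The Kcna5 stretch lies outside the gene span given above. The Kcnc4 stretch lies before its RefSeq start but inside the gene span given above, so the stretches are not alike in position. The RefSeq table held windows from 250 bases before to 50 bases after the start for 46 of the 62 genes, 69 windows in all. Their median was 10 CG dinucleotides, against 7 over all 32851 windows of the table. Of all windows, 31.4% held fewer CG dinucleotides than the window of Kcna5 and 68.6% held fewer than that of Kcnc4. Other genes had the reverse order: the window of Kcnd2, higher in the NAc, held 26, and that of Kcnf1, lower in the NAc, held 3. A link between CG dinucleotides and region was not tested. Methylation and binding were not analysed here.

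The Kcna genes, which form low-threshold currents at axons, split between the regions. Kcna1, at chr6:126640397-126646384, ranged over 91.02 to 160.5 CPM (median 129.6) across NAc libraries, 38.4 to 70.7 CPM (median 62.4) across PFC libraries and 3.95 to 52.7 CPM (median 15.1) across SCN libraries. Kcna4, which carries an inactivating A-type current, ranged over 48.5 to 130.4 CPM (median 74.3) across NAc libraries, 20.5 to 27.6 CPM (median 23.1) across PFC libraries and 4.45 to 19.6 CPM (median 7.63) across SCN libraries. For both genes the NAc lay above the PFC with no overlap (Kcna1 log2 fold change 1.12 ± 0.06, adjusted p = 1.8e-20 and Kcna4 log2 fold change 1.68 ± 0.11, adjusted p = 1.5e-18). Kcna2, Kcna3 and Kcna6 were lower in the NAc, with log2 fold changes of -0.39, -0.42 and -0.83. Kcna5, Kcna1 and Kcna6 are neighbours on chromosome 6, 105 kb and 61.9 kb apart, yet Kcna6 had the opposite sign from the other two. Per kilobase of exon, Kcna1 made up a median of 45.3% of the summed Kcna level among NAc libraries, 34.6% among PFC libraries and 12.3% among SCN libraries. The same shares of Kcna6 were 6.33%, 19.9% and 29.4%. By these medians Kcna1 came first in the NAc and PFC, and Kcna6 in the SCN.

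The Kcnc genes, which allow sustained fast firing, were led in the PFC by Kcnc4 and Kcnc2 per kilobase of exon. Their median shares of the summed Kcnc level there were 36.3% and 33.0%. Kcnc2, at chr10:112271121-112467024, ranged over 2.35 to 27.5 CPM (median 12.1) across NAc libraries, 36.1 to 52.9 CPM (median 42.6) across PFC libraries and 22.6 to 45.1 CPM (median 34.6) across SCN libraries. It was lower in the NAc, with no overlap with the PFC (log2 fold change -1.61 ± 0.21, adjusted p = 3.3e-09). Kcnc1 was at NAc and PFC medians of 32.8 and 32.8 CPM and was not called (log2 fold change 0.07 ± 0.10, adjusted p = 0.58). Its share of the Kcnc level per kilobase was 41.6% in the NAc and 19.3% in the PFC.

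Among the Kcnd genes, which carry the somatodendritic A-type current, Kcnd2 was the most abundant in every region. It ranged over 79.3 to 167.1 CPM (median 114.3) across NAc libraries, 49.6 to 72.1 CPM (median 58.2) across PFC libraries and 24.5 to 59.1 CPM (median 34.4) across SCN libraries, with no overlap between the NAc and PFC (log2 fold change 1.03 ± 0.07, adjusted p = 3.8e-18). Kcnd3 had the opposite sign (-0.47 on the log2 scale), so that Kcnd2 held 89.4% of the summed level per kilobase of Kcnd2 and Kcnd3 in the NAc and 74.8% in the PFC. Kcnd1, with no row in the SCN table, was low, at medians of 3.28 and 2.25 CPM, and higher in the NAc (log2 fold change 0.57 ± 0.11, adjusted p = 1.7e-05). The KChIP genes encode calcium sensors that bind Kcnd subunits. Kcnip2 was also higher in the NAc, at 34.1 to 69.2 CPM (median 53.2) across NAc libraries, 13.5 to 22.9 CPM (median 18.03) across PFC libraries and 3.47 to 20.1 CPM (median 5.34) across SCN libraries (log2 fold change 1.55 ± 0.08, adjusted p = 3.7e-21). Kcnip4 was lower in the NAc, at medians of 21.3 and 33.3 CPM, with no overlap (log2 fold change -0.65 ± 0.04, adjusted p = 2.1e-17). Kcnip3 was not called (-0.19 on the log2 scale). In the 17 mice with both regions it was called as lower in the NAc without a block (-0.30, adjusted p = 0.0026). With the mouse as a block it was also called as lower (-0.31, adjusted p = 0.011). Kcnip1 was called as higher in the NAc (log2 fold change 0.56 ± 0.22, adjusted p = 0.028). In the 17 mice with both regions its call was lost without a block (0.18, adjusted p = 0.49). With the mouse as a block its log2 fold change was -0.07 and it was not called. Kcnip1 was higher in the NAc in 8 of 17 mice.

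**Figure D2:**
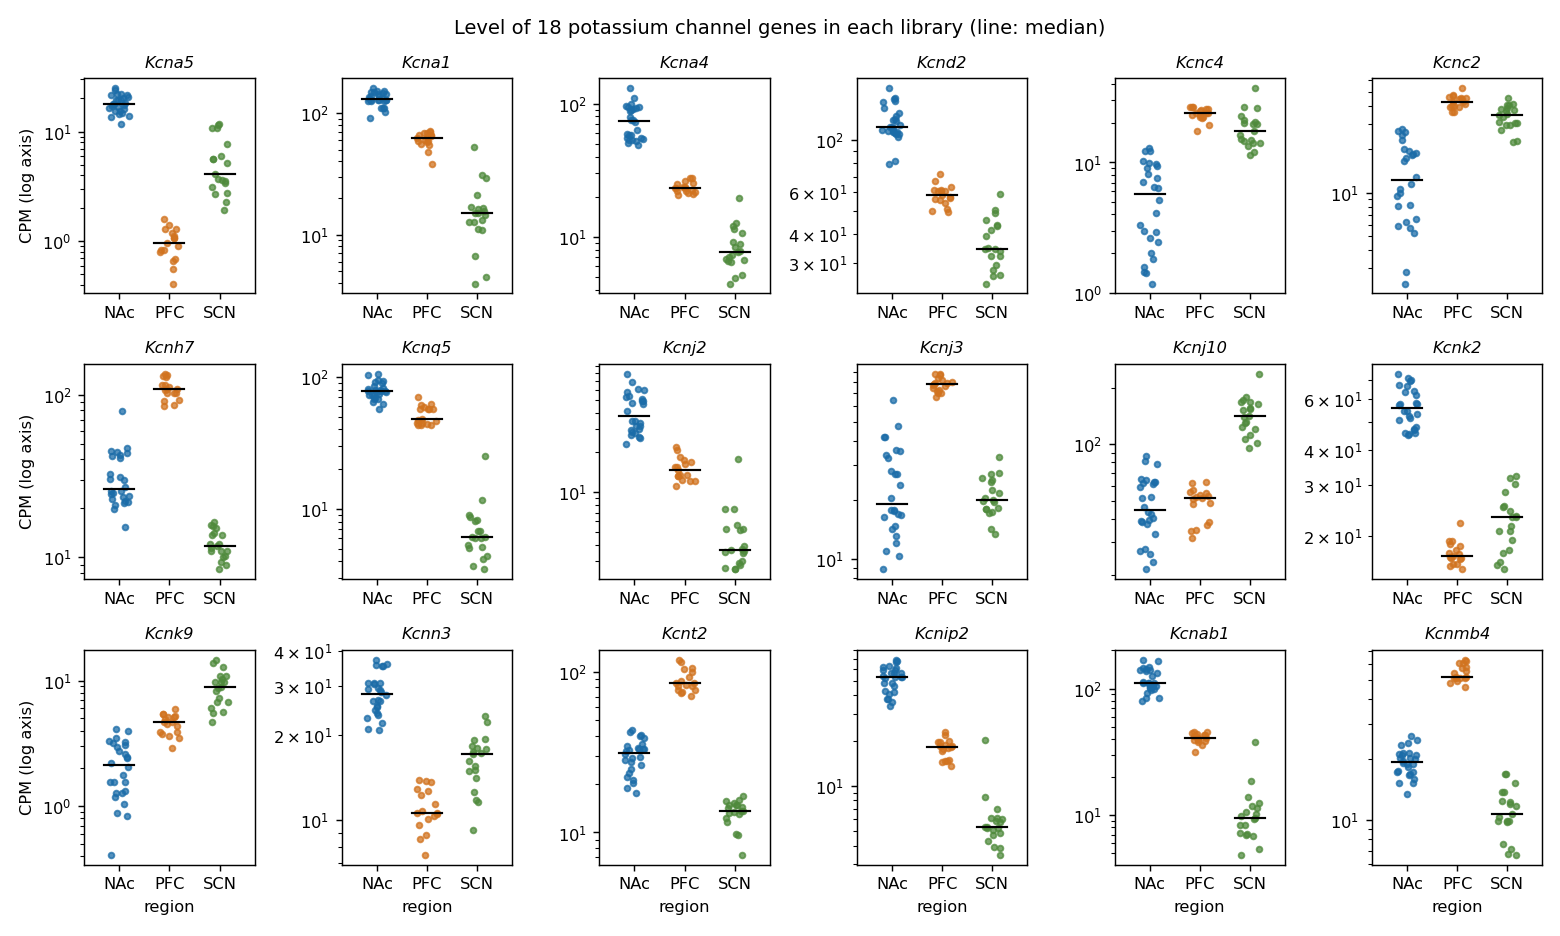
Level of 18 potassium channel genes in each of the 26 NAc, 17 PFC and 19 SCN libraries, in CPM on a log axis that differs between panels, with a line at the median of a region. Kcna5 in the NAc lies between 11.6 and 24.8 CPM, above every PFC library, and Kcnc4 spreads from 1.18 to 13.01 CPM among the NAc libraries.

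The delayed rectifier Kcnb2 and the subunits that form no channel alone were mostly lower in the NAc. Kcnb2 ranged over 8.43 to 28.5 CPM (median 14.4) across NAc libraries and 28.7 to 48.4 CPM (median 40.6) across PFC libraries, with no overlap (log2 fold change -1.43 ± 0.10, adjusted p = 9.2e-18). The silent subunits change the gating of Kcnb channels. Kcnv1 ranged over 22.9 to 45.5 CPM across NAc libraries and 60.3 to 83.8 CPM across PFC libraries, and its log2 fold change was -1.01. Kcnf1, Kcns1 and Kcns3 were also lower in the NAc, with medians of 28.4 and 57.9 CPM for Kcnf1 and log2 fold changes of -0.89 and -1.41 for the other two. Kcns2 was the silent subunit higher in the NAc (log2 fold change 0.58 ± 0.09, adjusted p = 2e-07). Kcng1 and Kcng3 were not called (-0.29 and -0.07). In the mice with both regions Kcng1 was called as lower without a block (-0.56, adjusted p = 2.1e-04). With the mouse as a block it was also called as lower (-0.57, adjusted p = 0.0012).

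Of the ether-a-go-go genes (Kcnh), Kcnh7, an ERG-type channel at chr2:62693414-63184287, had the largest difference. It ranged over 15.4 to 79.1 CPM (median 26.4) across NAc libraries, 84.97 to 134.0 CPM (median 107.6) across PFC libraries and 8.42 to 16.5 CPM (median 11.7) across SCN libraries. The highest NAc library, at 79.1 CPM, stayed below the lowest PFC library, at 85.0 CPM (log2 fold change -1.77 ± 0.13, adjusted p = 2.6e-16). Kcnh3 and Kcnh5 were lower in the NAc by -0.58 and -0.51 on the log2 scale, and Kcnh1 was not called (0.05). Kcnh2, also of the ERG type, was called as higher in the NAc (log2 fold change 0.37 ± 0.14, adjusted p = 0.02). In the mice with both regions its call was lost without a block (0.12, adjusted p = 0.42). With the mouse as a block the log2 fold change was 0.06 (adjusted p = 0.77). The annotated span of Kcnh7 overlaps Gca and that of Kcnh3 overlaps Mcrs1, both with rows of their own, and assignment of reads between them was not checked.

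Kcnq5 and Kcnq3, of the Kcnq family that carries the M-current, which damps repetitive firing, were higher in the NAc. Kcnq5 ranged over 57.2 to 105.1 CPM (median 77.6) across NAc libraries and 42.8 to 69.7 CPM (median 48.1) across PFC libraries (log2 fold change 0.60 ± 0.07, adjusted p = 1.6e-10). Kcnq3 followed at medians of 114.9 and 93.8 CPM (log2 fold change 0.38 ± 0.10, adjusted p = 5.4e-04), and was not called among lower mouse numbers (up to J1021, log2 fold change 0.29). The libraries of the regions overlapped for both genes.

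The inward rectifiers held genes higher and genes lower in the NAc. The strong rectifiers Kcnj2 and Kcnj4, which hold the resting potential, were higher in the NAc. Kcnj2, at chr11:111066164-111076821, ranged over 23.4 to 78.8 CPM (median 37.9) across NAc libraries, 11.1 to 21.8 CPM (median 14.6) across PFC libraries and 2.60 to 17.7 CPM (median 3.67) across SCN libraries. Kcnj4 ranged over 50.02 to 88.7 CPM (median 61.4) across NAc libraries and 33.8 to 45.7 CPM (median 41.2) across PFC libraries. Neither overlapped between the NAc and PFC (Kcnj2 log2 fold change 1.48 ± 0.14, adjusted p = 3.4e-13 and Kcnj4 log2 fold change 0.62 ± 0.05, adjusted p = 2.8e-14). Kcnj12, of the same type, was lower in the NAc (-0.36 on the log2 scale), at medians of 6.25 and 8.03 CPM. The call of Kcnj12 was lost in the upper range of mouse numbers. The G protein-gated subunits Kcnj3, Kcnj6 and Kcnj9, which open when inhibitory receptors are active, were all lower in the NAc. Kcnj3, at chr2:55435970-55598145, ranged over 8.87 to 64.4 CPM (median 19.2) across NAc libraries, 67.1 to 87.8 CPM (median 78.3) across PFC libraries and 13.5 to 33.1 CPM (median 19.9) across SCN libraries (log2 fold change -1.64 ± 0.17, adjusted p = 2.1e-11). The highest NAc library of Kcnj3 was 64.4 CPM, just below the lowest PFC library at 67.1 CPM. Kcnj6 ranged over 2.97 to 14.1 CPM across NAc libraries and 22.2 to 34.1 CPM across PFC libraries, and Kcnj9 over 1.75 to 10.01 and 8.15 to 20.5 CPM, with log2 fold changes of -1.72 and -1.67. Kcnj10, the main inward rectifier of astrocytes, was not called (log2 fold change 0.01 ± 0.14, adjusted p = 0.94). Its partner Kcnj16 was lower in the NAc, at medians of 10.3 and 19.8 CPM (log2 fold change -0.90 ± 0.17, adjusted p = 6.1e-06). Kcnj11, the pore of ATP-sensitive channels, was at medians of 3.05 and 3.36 CPM and was not called.

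CACGTG, the E-box bound by clock proteins and other factors, was searched for in the 69 promoter windows because the study altered the light cycle of some of the mice. It reads the same on both strands. It was in 3 of the 69 windows (4.35%), against 7.15% of all windows in the table, and the 3 windows belonged to 2 genes, Kcnab1 and Kcnj2. These 46-base stretches have the motif in capitals, and a match is not a measured binding site.
Kcnj2, chr11:111066060-111066105, plus strand: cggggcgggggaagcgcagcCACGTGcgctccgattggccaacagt
Kcnab1, chr3:65108832-65108877, plus strand: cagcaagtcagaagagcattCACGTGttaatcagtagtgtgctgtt
Kcnab1, chr3:65188038-65188083, plus strand: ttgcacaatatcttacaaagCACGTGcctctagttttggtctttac

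The two-pore channels showed both signs. Kcnk2, a mechanically gated leak channel at chr1:189207930-189402273, ranged over 44.9 to 73.6 CPM (median 56.1) across NAc libraries, 15.2 to 22.2 CPM (median 16.9) across PFC libraries and 15.3 to 32.5 CPM (median 23.2) across SCN libraries. It was higher in the NAc without overlap (log2 fold change 1.71 ± 0.07, adjusted p = 6.1e-27), whereas its paralogue Kcnk10 was lower without overlap, at 1.98 to 4.26 CPM against 4.99 to 7.81 CPM (log2 fold change -1.01 ± 0.08, adjusted p = 3.6e-15). Kcnk13 was low in both regions and higher in the NAc, at 2.89 to 7.45 CPM against 0.535 to 2.02 CPM (log2 fold change 1.59 ± 0.12, adjusted p = 1.3e-15). The acid-sensitive leak channels Kcnk3 and Kcnk9 were lower in the NAc (-0.64 and -1.05 on the log2 scale). Kcnk1, the most abundant of the 6 per kilobase in each region, was at medians of 48.5 and 46.5 CPM and was not called (log2 fold change 0.10 ± 0.05, adjusted p = 0.067).

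Among the small-conductance calcium-activated channels, which carry the afterhyperpolarization, Kcnn3 and Kcnn2 had opposite signs. Kcnn3, at chr3:89520164-89675132, ranged over 20.9 to 37.1 CPM (median 28.1) across NAc libraries, 7.49 to 13.9 CPM (median 10.6) across PFC libraries and 9.18 to 23.4 CPM (median 17.1) across SCN libraries (log2 fold change 1.36 ± 0.08, adjusted p = 3.1e-20). Kcnn2 ranged over 7.84 to 12.1 CPM across NAc libraries and 11.5 to 19.3 CPM across PFC libraries (log2 fold change -0.58 ± 0.06, adjusted p = 1.2e-12). Kcnn1 was lower in the NAc (-0.53 on the log2 scale), but was not called in the upper range of mouse numbers (-0.27). By median share per kilobase, Kcnn3 made up 60.5% of the Kcnn level among NAc libraries and 29.0% among PFC libraries. The sodium-activated channels also had opposite signs. Kcnt2 ranged over 17.7 to 43.2 CPM (median 31.3) across NAc libraries and 70.3 to 118.7 CPM (median 84.5) across PFC libraries with no overlap (log2 fold change -1.54 ± 0.09, adjusted p = 2e-19), and Kcnt1 was higher in the NAc at medians of 17.4 and 11.5 CPM (log2 fold change 0.67 ± 0.06, adjusted p = 1.9e-12). Kcnma1, the large-conductance channel gated by calcium and voltage, was lower in the NAc, at medians of 68.9 and 105.0 CPM (log2 fold change -0.58 ± 0.05, adjusted p = 2.3e-13). Kcnmb4, its neuronal auxiliary subunit, was lower with no overlap, at 13.3 to 26.2 CPM against 46.1 to 63.05 CPM (log2 fold change -1.48 ± 0.06, adjusted p = 2.1e-25). Of the auxiliary subunits of Kcna channels, Kcnab1 was higher in the NAc, at 79.3 to 169.1 CPM against 31.5 to 45.6 CPM (log2 fold change 1.53 ± 0.08, adjusted p = 1e-21). Kcnab2 was not called (-0.06 on the log2 scale).

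A list of 30 other genes whose products bind, anchor or regulate potassium channels was counted in the same fit. Of 27 with a row in that table, 12 were higher in the NAc and 5 were lower, where 23.7% and 21.7% of all rows were called. The lower share, 18.5%, was near that of all rows, and the higher share was 44.4%. The highest were Kctd8 (2.99 on the log2 scale), an auxiliary subunit of GABA-B receptors, Akap5 (1.45), a scaffold of kinases at Kcnq channels, and Kctd12 (1.07), a relative of Kctd8. Cntn2 (0.90) and Cntnap2 (0.87), which gather Kcna channels beside nodes, were also higher. Cntn2 is also expressed by oligodendrocytes, and the summed level of 9 oligodendrocyte markers was 703 to 1690 CPM in the NAc and 156 to 464 CPM in the PFC. Its part in the result was not tested. Dpp10 (-0.96), an auxiliary subunit of Kcnd channels, and Abcc8 (-0.64), the regulatory subunit of Kcnj11 channels, were lower, as were Kctd16, Ank2 and Amigo1. Dpp6 was higher (0.41), so that the paired Kcnd auxiliary subunits Dpp6 and Dpp10 differed in sign.

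The SCN was compared with each of the other regions over the 11133 rows that both tables hold. The tables were filtered separately, so region and table cannot be told apart. Of 50 potassium channel genes tested, 30 were lower and 15 were higher in the SCN than in the NAc, and 35 were lower and 13 were higher than in the PFC. Of all rows, 64.1% were called between the SCN and NAc, 34.2% higher and 29.8% lower in the SCN. Between the SCN and PFC, 64.8% were called, 33.5% higher and 31.3% lower. The median log2 fold change of the 50 genes was -0.76 against the NAc and -0.90 against the PFC, where the medians of all rows were 0.04 and 0.03. The libraries did not overlap for 21 genes against the NAc (13.2% of all rows) and 23 genes against the PFC (20.7% of all rows). Without the SCN libraries J1199 and J1140, which were highest in striatal genes, the counts called were 45 and 48, as with them.

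Kcnq5 and Kcnq3 were low in the SCN. Kcnq5 ranged over 3.48 to 25.04 CPM (median 6.08) across SCN libraries, below every library of the NAc (log2 fold change -3.40 ± 0.16, adjusted p = 4.6e-24) and PFC (log2 fold change -2.82 ± 0.18, adjusted p = 1.6e-17). The highest SCN value, 25.0 CPM, was that of J1199. Kcnq3 ranged over 10.5 to 55.2 CPM (median 23.3) and was lower than in the NAc (log2 fold change -2.38 ± 0.15, adjusted p = 1.2e-19) and PFC (log2 fold change -2.02 ± 0.15, adjusted p = 4.7e-15).

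The genes lowest in the SCN relative to the NAc, after Kcnq5, were Kcnab1, Kcna4, Kcnj2, Kcnip2 and Kcna1. Kcnab1 ranged over 4.84 to 37.6 CPM (median 9.47) across SCN libraries (log2 fold change -3.39 ± 0.17, adjusted p = 7.5e-23), and Kcnip2 over 3.47 to 20.1 CPM (median 5.34) (log2 fold change -3.06 ± 0.15, adjusted p = 8.8e-24). Their log2 fold changes and those of Kcna4 (-3.10), Kcnj2 (-3.10) and Kcna1 (-2.95) left no overlap with the NAc. Kcns2 (-1.87), Kcnd2 (-1.67), Kcna5 (-1.67) and Kcnf1 (-1.61) were also lower. J1199 was the highest SCN library for Kcna1, Kcna5, Kcnj2, Kcnab1, Kcnip2 and Kcna4, as it was for the striatal markers. Relative to the PFC the lowest were Kcnh7 (log2 fold change -3.16 ± 0.09, adjusted p = 4.6e-29), Kcnq5, Kcnt2 (log2 fold change -2.74 ± 0.09, adjusted p = 7.5e-27), Kcnf1 (log2 fold change -2.63 ± 0.12, adjusted p = 2.2e-22) and Kcnmb4 (log2 fold change -2.28 ± 0.10, adjusted p = 4e-22), none of which overlapped with the PFC. Kcnb2, Kcnma1, Kcnj3 and Kcnab1 were lower than in the PFC as well, at -1.91, -1.92, -1.88 and -1.89 on the log2 scale.

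Fewer genes were higher in the SCN, and they included the glial inward rectifiers and the acid-sensitive two-pore channels. Kcnj10, at chr1:172341210-172374085, ranged over 95.9 to 238.3 CPM (median 142.4) across SCN libraries, above every library of the NAc, at 21.4 to 87.1 CPM, and of the PFC, at 31.4 to 62.6 CPM. It was 3.01-fold the NAc level (log2 fold change 1.59 ± 0.14, adjusted p = 1.1e-14) and 2.98-fold the PFC level (log2 fold change 1.58 ± 0.11, adjusted p = 1.4e-16). Kcnj16 ranged over 22.98 to 38.2 CPM (median 29.2) across SCN libraries and was also above every library of both regions (log2 fold change 1.51 ± 0.16, adjusted p = 5.6e-12 and log2 fold change 0.58 ± 0.07, adjusted p = 4e-10). The summed level of 7 astrocyte markers was 1655 to 2851 CPM in the SCN, 1977 to 3677 CPM in the NAc and 2333 to 3841 CPM in the PFC, while Gja1, one of them, was at 161 to 244 CPM in the SCN, 86.0 to 164 CPM in the NAc and 95.2 to 150 CPM in the PFC. Slc1a2, at medians of 1002, 2282 and 2471 CPM in the SCN, NAc and PFC, was the largest part of the sum. The other 6 markers each had a higher median in the SCN than in both other regions, with Gfap at 135.6, 9.32 and 32.3 CPM and Slc1a3 at 415, 256 and 274 CPM. Their part in the result was not tested. Kcnk9 ranged over 4.66 to 14.7 CPM (median 8.93) across SCN libraries, above every NAc library (log2 fold change 2.06 ± 0.18, adjusted p = 1.6e-14), and was higher than in the PFC (log2 fold change 0.99 ± 0.12, adjusted p = 4e-09). Kcnk3 and Kcnk10 were higher than in the NAc by 1.09 and 1.41 on the log2 scale and higher than in the PFC by 0.43 and 0.37, although Kcnk3 was not called against the PFC in the lower range of mouse numbers (0.20). Kcnk2 was higher than in the PFC (0.38) in the fit without a block, but with the mouse as a block its log2 fold change of 0.25 was under the fold threshold.

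Relative to the NAc, Kcnc4 (log2 fold change 1.68 ± 0.24, adjusted p = 1.8e-08) and Kcnc2 (log2 fold change 1.30 ± 0.20, adjusted p = 1.7e-07) were also higher in the SCN, with Kcnip1 (SCN median 10.3 CPM, NAc median 5.45 CPM), Kcna3 (0.96), Kcnj9 (0.89) and Kcns3 (0.83). Kcnc1 was called as higher (0.32). In the mice with both regions its call was lost without a block (0.27, adjusted p = 0.051). With the mouse as a block the log2 fold change was 0.26 (adjusted p = 0.099). Relative to the PFC, the highest genes by fold change were Kcna5 (log2 fold change 2.51 ± 0.23, adjusted p = 2.1e-12), Kcnk13 (log2 fold change 1.79 ± 0.21, adjusted p = 1e-09), Kcnj10 and Kcnip1 (log2 fold change 1.53 ± 0.11, adjusted p = 1.2e-15), and Kcnh2 (0.92), Kcnn3 (0.57) and Kcna3 (0.51) were also higher. Kcnip3 was called against neither region, although in the lower range of mouse numbers it was called as lower than in the PFC (-0.36, adjusted p = 0.0014). Its SCN median was 28.7 CPM, beside 27.2 and 30.8 CPM for the NAc and PFC.

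A few genes had a row in 1 table alone. In the table of the SCN these were Kcnh8, an ELK-type channel, at 3.07 to 14.8 CPM (median 8.26), Kcnj5, a G protein-gated subunit, at 1.51 to 11.7 CPM (median 3.84), Kcne1l, an auxiliary subunit, at 2.98 to 9.32 CPM (median 4.89), and Kcnmb1, the auxiliary subunit of Kcnma1 in smooth muscle, at 0.438 to 7.48 CPM (median 3.10). Kcnmb1 lies inside Kcnip1 on the opposite strand on chromosome 11, and reads of the pair may not be fully separable. Those with a row for the NAc and PFC alone were Kcnj4, Kcnj11, Kcnd1, Kcng1, Kcng3, Kcnh3, Kcns1 and Kcnv1. Kcns1, the lowest of these not yet given, was at 0.970 to 5.77 CPM (median 2.35) across NAc libraries and 3.66 to 5.96 CPM (median 4.52) across PFC libraries. No level of these genes was set against the region without a row.

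Summed per kilobase over the 50 genes of both tables, the potassium channel level was 257 to 334 CPM per kb in the NAc (median 299.9), 253 to 315 in the PFC (median 288) and 136 to 216 in the SCN (median 165). Every SCN library was below every library of the other regions, while the NAc and PFC overlapped. Inward rectifiers made up a median of 26.5% of this sum in the SCN, 14.2% in the PFC and 9.52% in the NAc. Kcnj4, the inward rectifier that came first per kilobase in the NAc, has no SCN row and is left out of this sum. The shares therefore describe the 50 genes alone. Kcnq genes made up 4.70% in the SCN, 7.21% in the PFC and 9.48% in the NAc. The large-conductance and sodium-activated genes made up 6.93% in the PFC, 3.49% in the NAc and 2.64% in the SCN. The share of voltage-gated genes differed little by comparison, with NAc, PFC and SCN medians of 43.1%, 40.4% and 38.1%. These levels compare tables that were filtered apart, and no test was made of them.

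**Figure D3:**
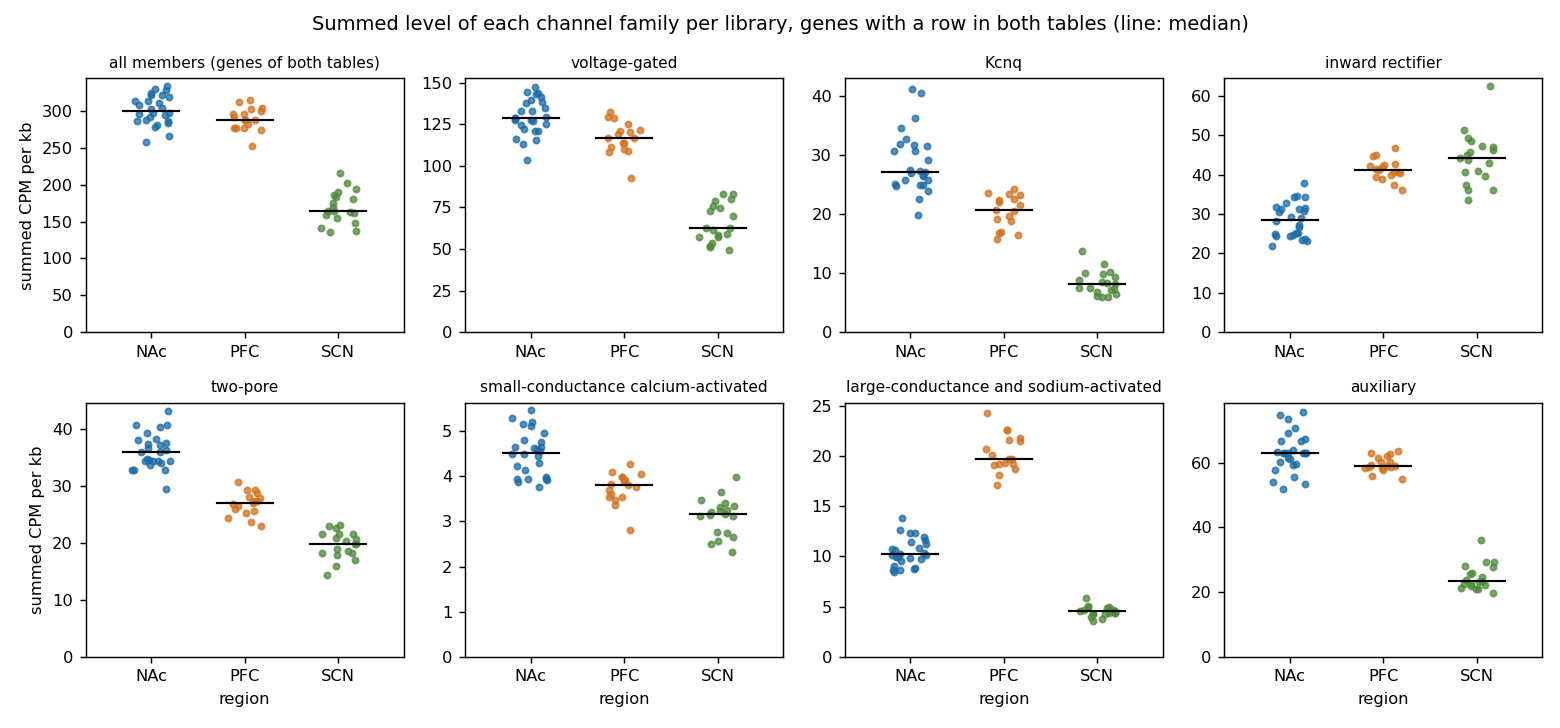
Summed CPM per kilobase of exon of each channel family in every NAc (26), PFC (17) and SCN (19) library, over the 50 genes with a row in both tables, with a line at the median and axes that start at 0. All SCN libraries lie at or below 216 for the whole set. Inward rectifiers are the family with an SCN median, 44.1, above those of the NAc, 28.6, and the PFC, 41.1, in these sums. Kcnj4, an inward rectifier that comes first per kilobase in the NAc, has no SCN row and is left out. The order of the regions covers the summed genes alone.

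By median level per kilobase, the first gene was Kcnj4 in the NAc (28.5 CPM per kb), Kcnk1 in the PFC (20.8) and Kcnj10 in the SCN (26.3). In the NAc, Kcnj4 was followed by Kcna1 (27.1), Kcnd2 (22.2), Kcnk1 (21.7), Kcna4 (15.4), Kcnip2 (15.3), Kcnab2 (14.7) and Kcnab1 (12.9). The ranges of neighbours in this order overlapped. In the PFC, Kcnk1 was followed by Kcnj4 (19.1), Kcnv1 (15.7), Kcnmb4 (15.6), Kcnab2 (15.2), Kcnj3 (15.01), Kcna1 (13.05) and Kcnt2 (12.3). In the SCN, Kcnj10 was followed by Kcnk1 (10.3), Kcnip3 (8.08), Kcnj16 (7.42), Kcnd2 (6.68), Kcna6 (6.30) and Kcna3 (5.83). The lowest SCN library for Kcnj10, at 17.7 CPM per kb, was above the highest for Kcnk1, at 12.7. Kcnk1 alone was among the first 8 in all 3 regions.

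Potassium channel genes varied more between libraries of a region than the median row did. The median SD of log2 CPM was 0.34 in the NAc for 58 genes against 0.26 for all rows, and 42 of the 58 were above the median row. In the PFC it was 0.21 against 0.19, and 34 of the 58 were above. In the SCN it was 0.41 against 0.29 for 54 genes, of which 46 were above. In the NAc the widest were Kcnc4 (SD 1.11), Kcnc2 (0.99), Kcnip1 (0.97), Kcnk9 (0.78) and Kcnj3 (0.75). In the PFC they were Kcna5 (0.48), Kcnk13 (0.47), Kcnn1 (0.41), Kcng1 (0.37) and Kcnj9 (0.34), at PFC medians of 13.6 CPM or less. In the SCN they were Kcnmb1 (0.99), Kcna1 (0.89), Kcna5 (0.80), Kcnk13 (0.77) and Kcnj5 (0.76). The NAc and SCN libraries of J1199 were each the highest of their region for 14 genes by log2 CPM. The share of all rows for which they were highest was not counted, so this may not be particular to these genes. Low counts add sampling spread, which was not removed.

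Among the 26 NAc libraries, many potassium channel genes followed Slc17a7, the vesicular glutamate transporter of cortical neurons. A slope is the change of log2 level per doubling of Slc17a7, fitted over the 26 libraries. It was above 0 for 28 of 58 genes and below 0 for 12 at an adjusted p under 0.05, against 19.9% and 20.4% of all rows. The share of falls was thus near that of all rows, and the share of rises was above it. The steepest rises were those of Kcnc4 (0.57 ± 0.06, adjusted p = 9.5e-09), Kcnc2 (0.45 ± 0.06, adjusted p = 4.6e-06), Kcnj3 (0.39 ± 0.03, adjusted p = 7.1e-10) and Kcnip1 (0.39 ± 0.08, adjusted p = 3.6e-04). Kcnk9, Kcnj9, Kcnh2 and Kcnj16 followed, with slopes of 0.31, 0.30, 0.25 and 0.24. The steepest falls were those of Kcnj2 (-0.23 ± 0.03, adjusted p = 4e-06), Kcna4 (-0.19 ± 0.03, adjusted p = 1.3e-05), Kcns2 (-0.13 ± 0.03, adjusted p = 0.0011) and Kcnab1 (-0.12 ± 0.03, adjusted p = 4.5e-04), ahead of Kcnq3, Kcna5, Kcnj12 and Kcnip2, with slopes of -0.11, -0.11, -0.10 and -0.09. In the lower range of mouse numbers (12 libraries) 13 rises and 2 falls passed, and in the upper range (14 libraries) 18 rises and 11 falls. The shares of all rows within each range were not counted, so these counts may not be particular to these genes. The summed cortical and striatal marker levels moved with the same libraries: J1199 was the highest NAc library for the former and the lowest for the latter. Their part in the slopes was not tested.

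**Figure D4:**
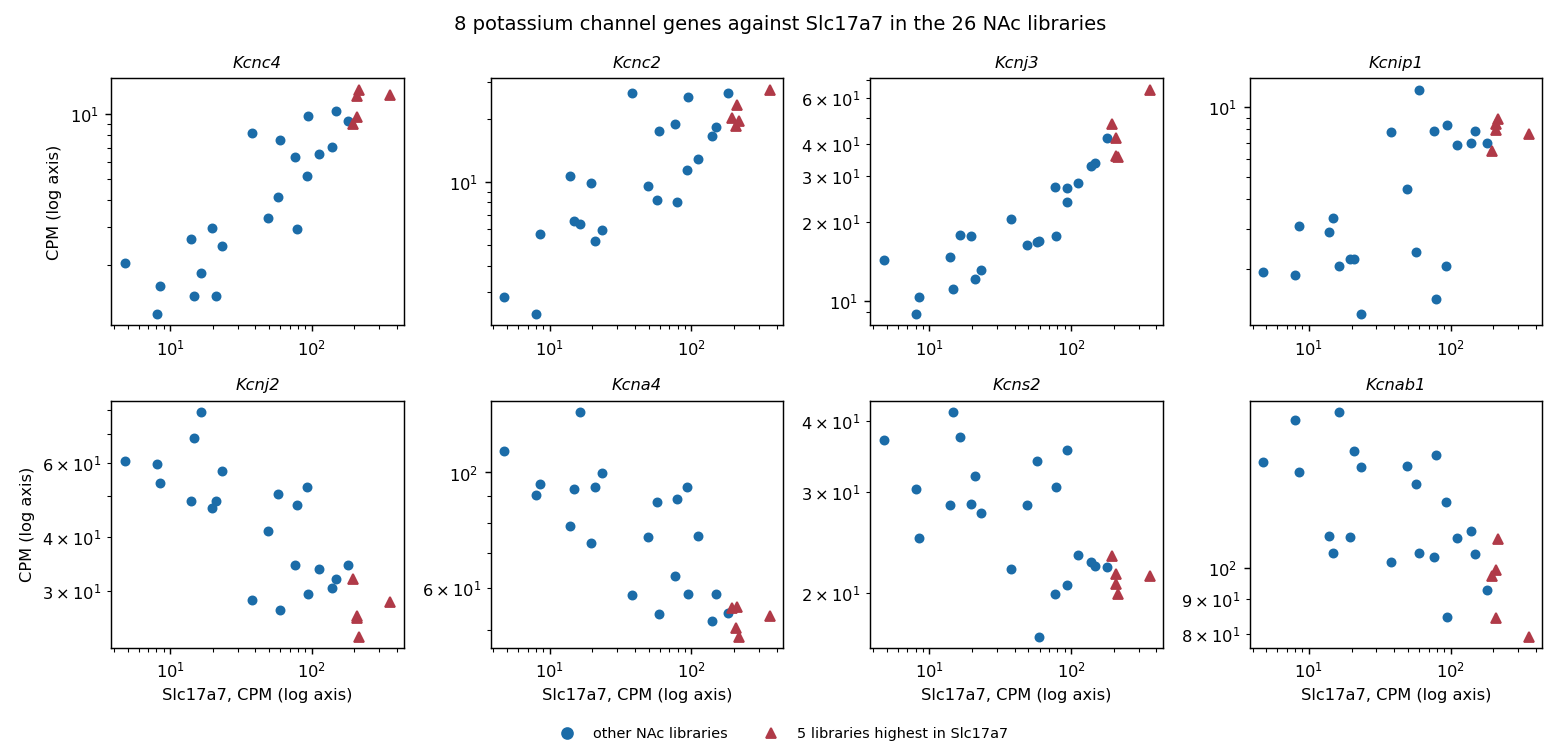
Level in CPM (log axis) of 8 potassium channel genes against the level of Slc17a7 in CPM (log axis) in the 26 NAc libraries, with the 5 libraries highest in Slc17a7 as triangles. Kcnc4, Kcnc2, Kcnj3 and Kcnip1 rise with Slc17a7 (slopes 0.57, 0.45, 0.39 and 0.39), and Kcnj2, Kcna4, Kcns2 and Kcnab1 fall.

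Leaving out the 5 NAc libraries highest in Slc17a7 changed the call of 4 genes between the NAc and PFC. Kcnh2 (0.27) and Kcnip1 (0.38) were no longer called as higher, and Kcng1 (-0.34) and Kcnip3 (-0.27) became lower. For Kcnc4 and Kcnj3, which had among the steepest slopes, the regions did not overlap with all libraries in.

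Among the 19 SCN libraries, the levels of 11 of 54 potassium channel genes followed a score for SCN neurons, the mean z-score of log2 CPM of the 9 markers Avp, Vip, Grp, Nms, Prok2, Lhx1, Six6, Gpr176 and Syt10. The slope per unit of the score was above 0 for Kcnh8 (0.59 ± 0.12, adjusted p = 0.0057) and Kcnc2 (0.24 ± 0.06, adjusted p = 0.019), where 1.68% of all rows rose. It was below 0 for 9 genes, where 1.9% of all rows fell. Of these, Kcnab1 (-0.68 ± 0.09, adjusted p = 1.3e-04), Kcnq5 (-0.53 ± 0.13, adjusted p = 0.02), Kcnj2 (-0.52 ± 0.15, adjusted p = 0.049) and Kcnf1 (-0.41 ± 0.07, adjusted p = 0.0013) were the steepest. Kcna4, Kcnip1, Kcnk2 and Kcnh1 had slopes of -0.40, -0.35, -0.31 and -0.30, and Kcnj3 was the ninth. Which of these slopes passed depended on the libraries in the fit. Without J1199 and J1140, 4 genes passed: Kcnh8 rose, and Kcnab1, Kcnip1 and Kcnk2 fell. Without them the slopes of Kcnq5 and Kcnj2 were -0.13 (adjusted p = 0.62) and -0.05 (adjusted p = 0.89). In the lower range of mouse numbers none of the 11 passed, and the 2 genes that did, Kcna5 and Kcnj5, were named after their values were seen. In the upper range 7 genes passed, of which 5 were among the 11 (Kcnab1, Kcnq5, Kcnf1, Kcna4 and Kcnh1). Neither range had a rise that passed. For these smaller fits the shares of all rows were not counted.

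**Figure D5:**
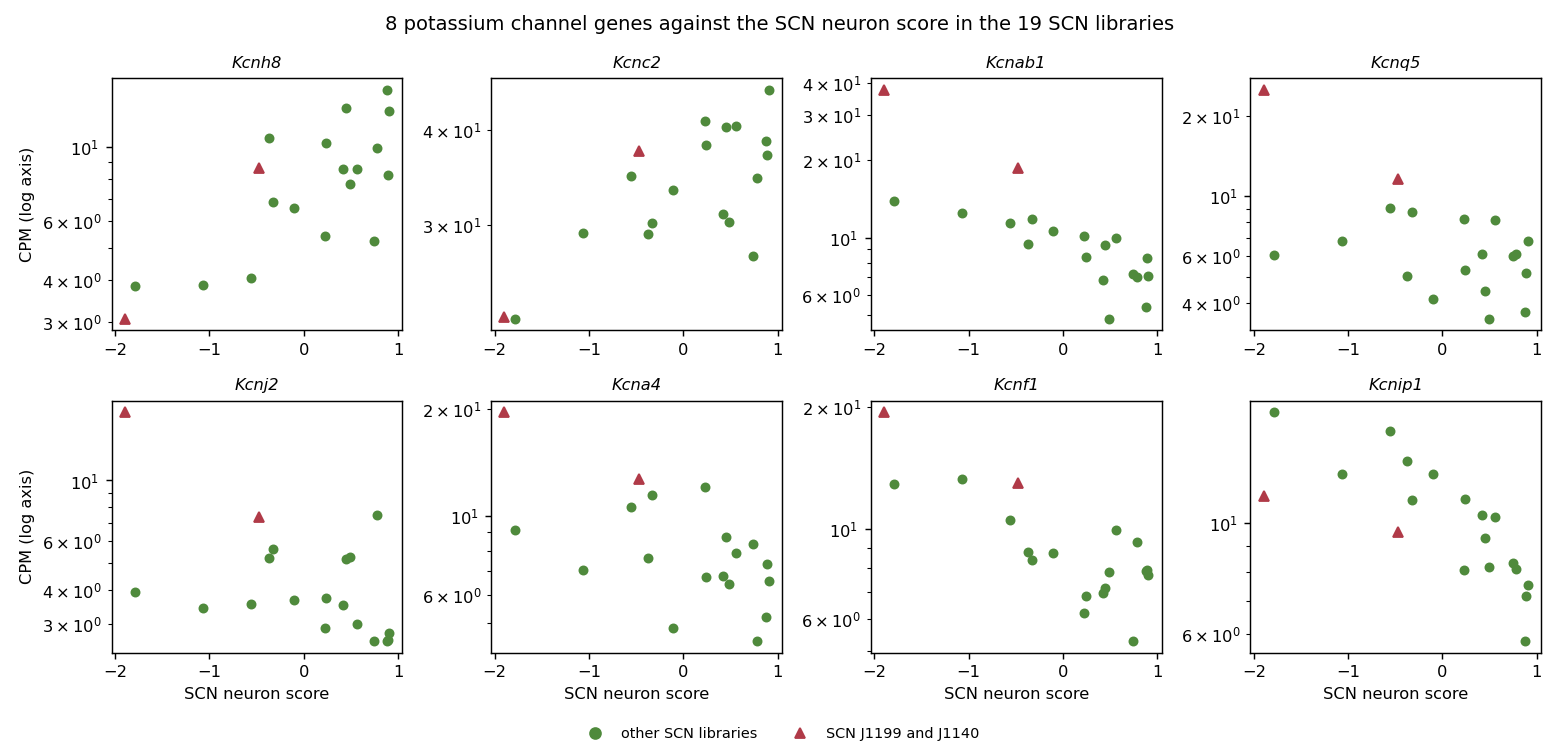
Level in CPM (log axis) of 8 potassium channel genes against the SCN neuron score (mean z-score, no unit) in the 19 SCN libraries, with the libraries of J1199 and J1140 as triangles. J1199 has the lowest score and the highest level of Kcnab1, Kcnq5, Kcnj2, Kcna4 and Kcnf1, and the slope of Kcnip1, -0.35, does not rest on it.

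The difference between the NAc and PFC was also compared between the lower and upper ranges of mouse numbers. No potassium channel gene passed an adjusted p under 0.05 in edgeR's test of that difference, as for all rows (0.0% of 11569). At an unadjusted p under 0.05 there were 12 of 58 genes, against 19.7% of all rows. DESeq2 passed 23 rows, of which 0 were potassium channel genes, and edgeR with the mouse as a block passed 1 row, which was not one of them.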

How the data were processed

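Gene counts of 62 libraries of punches from the NAc, PFC and SCN were used. The authors prepared libraries from 10 ng of RNA with a SMART-Seq HT kit, checked reads with FastQC 0.11.7, aligned them to GRCm38 with HISAT2, counted them per gene with HTSeq and deposited raw counts in a table for the NAc and PFC and a table for the SCN. The annotation release is not given in the sources used here. GENCODE M21, on the same build, gave symbols, gene types, positions and merged exon lengths, and 29 rows had no entry.

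The potassium channel genes, the partner and marker lists and the libraries left out were chosen with earlier results of these data known. Regions were compared with edgeR 4.0.16 (R 4.3.3) by the quasi-likelihood test with TMM factors, where filterByExpr removed no row. Calls needed a Benjamini-Hochberg adjusted p under 0.05 over all rows and a change of 1.2-fold or more. The SE is the log2 fold change divided by the root of F. Comparisons with the SCN used the 11133 rows of both tables. CPM levels share 1 TMM scale over all libraries, and levels per kilobase divide by merged exon length. Spreads use log2 CPM with a prior count of 2. Counting error is small beside the spread between libraries except for genes of a few CPM. Alternatives were DESeq2 1.42.0, its size factors, other filters, ranges of mouse numbers (up to J1021, from J1140) and left-out libraries. Mice with both regions were also fitted alone, with the mouse as a block and without it. Code was tested on simulated data.

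Libraries of 1 mouse pair the regions. The correlation of their deviations from the region means had a median of 0.006 (-0.449 to 0.272) over 17 mice for the NAc and PFC, of 0.001 over 19 mice for the SCN and NAc and of 0.099 over 12 mice for the SCN and PFC. Replicates are mice of mixed, unlabelled groups, and p-values measure the spread between these libraries. No pair of libraries of a region agreed within sampling noise.

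Values were given for genes with a row in 1 table alone, the 10 called genes that rose or fell most, the 5 smallest changes not called between the NAc and PFC, the 8 highest per kilobase and the 5 most variable in each region, and the 8 steepest slopes. Other genes were named within their family. A few genes that enter the counts and sums are not reported here by name. Annotated spans of Kcnq5, Kcnab2, Kcnip4, Kcnk2, Kcnk3, Kcnd2, Kcnh3 and Kcnh7 overlap another gene with a row, and the strand setting of the counting is not given in the sources used here. Calculations outside R used Python 3.11.15 with pandas 2.3.3 and numpy 2.4.6.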

Additional observations from a re-analysis of the deposited data

How the results depend on the processing

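Counts of potassium channel genes called between regions, and of channel partners, stayed within 1.5 times under every alternative run: 44 to 49 between the NAc and PFC, 43 to 45 between the SCN and NAc, 45 to 48 between the SCN and PFC, and 16 to 19 partners between the NAc and PFC. With the mouse as a replicate block, fitted in the mice with both regions, these counts were 49, 44, 47 and 19. Beside the changes of call given with the genes above, this fit changed no other call of a potassium channel gene.

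The slopes depended on the libraries. For Slc17a7 in the NAc, 40 genes passed (28 rises, 12 falls). The lower range of mouse numbers left 15 (13 rises, 2 falls), and the upper range left 18 rises. For the SCN neuron score, 11 passed (2 rises, 9 falls). Without the 2 libraries farthest from the median (J1199 and J1018) 4 passed (0 rises, 4 falls), in the lower range 2 (0 rises, 2 falls; 0 of the 11), in the upper range 7 (0 rises; 5 of the 11), and without J1199 and J1140 4 (1 rise, 3 falls). Fewer libraries entered each of these fits, and no other cause was tested. The shares of all rows that passed in them were not counted.

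Signs turned for genes with small differences, of which only Kcnip1 had been called. Between the NAc and PFC (log2), the mouse as a block gave -0.13 for Kcnc1, -0.10 for Kcnh1, -0.067 for Kcnip1 and -0.29 for Kcnj10. The mice with both regions without a block gave -0.10 for Kcnc1, -0.081 for Kcnh1 and -0.23 for Kcnj10, and the lower range gave -0.14 for Kcnc1, -0.14 for Kcnh1 and -0.15 for Kcnj10. The upper range gave 0.093 for Kcnab2, 0.0023 for Kcng3, 0.0023 for Kcnip3 and 0.062 for Kcnj11. Leaving out the 5 NAc libraries highest in Slc17a7 gave 0.022 for Kcng3, -0.043 for Kcnh1 and -0.0092 for Kcnj10. Between the SCN and NAc, Kcnip3 was -0.0074 with the block, -0.030 without it in the same mice, -0.076 in the upper range and -0.00054 without SCN J1199 and J1140. Kcnj3 was 0.069 and Kcnn1 was 0.053 without those 5 libraries, and Kcnn1 was 0.32 in the lower range. The cause of these turns was not tested.

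Of 2176 values of single genes under an alternative, 2080 kept their sign and their side of the threshold, 62 lost and 10 gained a call with the sign kept, and 24 turned sign, of which that of Kcnip1 also lost its call. Depth limits genes of a few CPM, such as Kcna5 in the PFC.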
